A study of Mus musculus with 6 samples.

Results

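E proteins, ID proteins and ZEB factors are 3 small groups of transcription regulators that act on one short DNA motif, the E-box. The group described here holds 8 mouse genes: Tcf3, Tcf4 and Tcf12, which encode the E proteins E2A, E2-2 and HEB; Id1, Id2 and Id3; and Zeb1 and Zeb2. Members were taken by gene symbol from the annotation of the array platform, which gave 28 probe sets of the 45101 on the array, a probe set being the group of probes that reads one stretch of transcript. Of these, 23 passed a filter on dim signal, among 22956 probe sets tested in all. Tcf4 in this list is the E protein gene and not the Wnt pathway gene Tcf7l2, which has been called by the same name.

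The mice were female and on a C57BL/6 background, and carried the HdcGFP reporter; their marrow was taken from femur and tibia. All 6 samples share this reporter, in which green fluorescence follows Hdc, whose product, histidine decarboxylase, makes histamine. Myeloid cells positive for CD11b and Gr1 were sorted into a group with high reporter signal (labelled HdcGFP+/hi, here GFP_plus, 3 arrays) and a group with low or no signal (labelled HdcGFP-/lo, here GFP_min, 3 arrays). For GFP_min replicate b the description reads Gr1-negative while its sorted-cell label reads Gr1-positive. The labels give no treatment and no age and do not say whether the arrays came from separate mice or pools, so the p-values rest on the spread among these 6 samples, and that spread may be technical.

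E proteins bind the E-box through a basic helix-loop-helix domain, as pairs with each other or with tissue-specific partners. ID proteins have the helix-loop-helix but lack the basic part, so a pair of an E protein with an ID protein does not bind DNA. ZEB factors are zinc finger proteins that bind a subset of E-boxes and mostly repress. In blood cells, E proteins are known for B and T lymphocyte development and, in the case of Tcf4, for plasmacytoid dendritic cells; Id2 is known for innate lymphoid cells and type 1 conventional dendritic cells, and Zeb2 for monocytes, macrophages and dendritic cells.

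In GFP_plus cells Tcf4 was 8.57-fold lower, Zeb2 5.54-fold lower and Tcf12 2.10-fold lower than in GFP_min cells, and Zeb1 was 1.81-fold higher, each by the gene's brightest probe set. Tcf3 and Id1 did not pass the test, the 3 probe sets of Id2 did not move one way, and Id3 lay below the array medians on all 6 arrays. A difference was called when its adjusted p was under 0.05 by limma, a linear model fitted to all tested probe sets with Benjamini-Hochberg adjustment. Of the 23 tested member probe sets 14 were called lower, where 22.9% of all tested probe sets were, and 2 were called higher, where 21.7% were. In 17 of the 23 the groups did not overlap, where 55.3% of all tested probe sets had such groups. Counted by gene on the brightest probe set, 4 of the 7 tested members were lower (27.6% of all 10810 tested genes) and 1 was higher (21.0%). The fourth of the lower ones is Id2, whose call did not hold when single arrays were left out, so that Tcf4, Tcf12 and Zeb2 remain. The median difference of the tested member probe sets was −0.60 on the log2 scale, against 0.0406 over all tested probe sets.

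The text gives log2 values as deposited, on which a difference of 1 is a doubling. Array medians lay between 2.82 and 2.88, Pearson correlations were 0.996 to 0.997 within a group and 0.978 to 0.982 between groups. Hdc, on which the cells were sorted, was 11.19 ± 0.03 in GFP_min and 12.01 ± 0.06 in GFP_plus (mean ± SD, n = 3 each), and Itgam, which encodes CD11b, was 11.58 ± 0.23 and 11.84 ± 0.13. Neutrophil markers of the later stages averaged 13.54 to 13.58 in GFP_min and 13.74 to 13.82 in GFP_plus over 11 genes, so transcripts of neutrophils were abundant in both groups. The 3′ to 5′ signal gap of Gapdh, a sign of RNA quality, was 0.26 to 0.37 in GFP_min and 0.59 to 0.66 in GFP_plus. The same gap of actin differed less, 0.79 to 0.83 in GFP_min and 0.82 to 0.90 in GFP_plus. The part of RNA quality in the member results was not tested, and having 3 arrays a group limits how precise any value can be.

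E-boxes are written CANNTG, and this pattern reads the same on both strands. RefSeq promoter sequences (GRCm38.p6) were matched by symbol for 5 of the 8 genes, with 10 annotated start sites. None was matched for Tcf4, Zeb1 and Id1. The 250 bases before the outermost start of 4 of them are shown because 2 of these genes, Zeb2 and Tcf12, moved in the same direction while Tcf3 and Id2 did not follow them. Capitals mark each E-box. All 4 lie on the minus strand: Zeb2 at chr2:45117443-45117692, Tcf12 at chr9:72111820-72112069, Tcf3 at chr10:80433636-80433885 and Id2 at chr12:25096093-25096342.
Zeb2: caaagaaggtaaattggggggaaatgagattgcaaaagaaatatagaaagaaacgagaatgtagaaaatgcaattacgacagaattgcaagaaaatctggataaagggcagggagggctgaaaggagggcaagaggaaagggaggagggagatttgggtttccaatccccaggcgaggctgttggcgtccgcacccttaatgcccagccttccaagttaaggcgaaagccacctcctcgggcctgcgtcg
Tcf12: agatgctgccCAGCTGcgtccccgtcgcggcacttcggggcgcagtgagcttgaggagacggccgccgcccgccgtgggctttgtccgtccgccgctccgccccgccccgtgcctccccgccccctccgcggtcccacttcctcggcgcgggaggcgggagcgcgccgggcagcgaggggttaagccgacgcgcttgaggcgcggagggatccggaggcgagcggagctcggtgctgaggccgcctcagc
Tcf3: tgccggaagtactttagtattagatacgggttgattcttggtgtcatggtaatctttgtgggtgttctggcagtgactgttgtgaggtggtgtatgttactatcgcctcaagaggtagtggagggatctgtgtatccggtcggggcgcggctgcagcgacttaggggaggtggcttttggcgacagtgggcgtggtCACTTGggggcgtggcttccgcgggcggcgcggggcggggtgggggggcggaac
Id2: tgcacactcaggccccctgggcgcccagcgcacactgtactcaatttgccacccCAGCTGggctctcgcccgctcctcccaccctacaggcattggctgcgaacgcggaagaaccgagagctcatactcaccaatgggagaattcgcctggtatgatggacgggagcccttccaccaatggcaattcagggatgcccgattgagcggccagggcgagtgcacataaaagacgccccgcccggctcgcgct
The Tcf12 and Id2 windows each held the form CAGCTG, 240.0 and 196.0 bases before the start, and the Tcf3 window held CACTTG 54.0 bases before it. Over all 10 member windows 4 held an E-box (40.0%), and the 4 windows of Zeb2 held none. The Zeb2 windows at chr2:45113280-45113529 and chr2:45113254-45113503 share most of their bases, so the share over member windows counts that stretch more than once. Of all 32851 promoter windows of this length 66.2% held CANNTG and 4271 held CAGCTG. Such a match is a description of the sequence only, and its absence concerns these letters in this window. The array does not tell which start site a transcript came from.

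**Figure D1:**
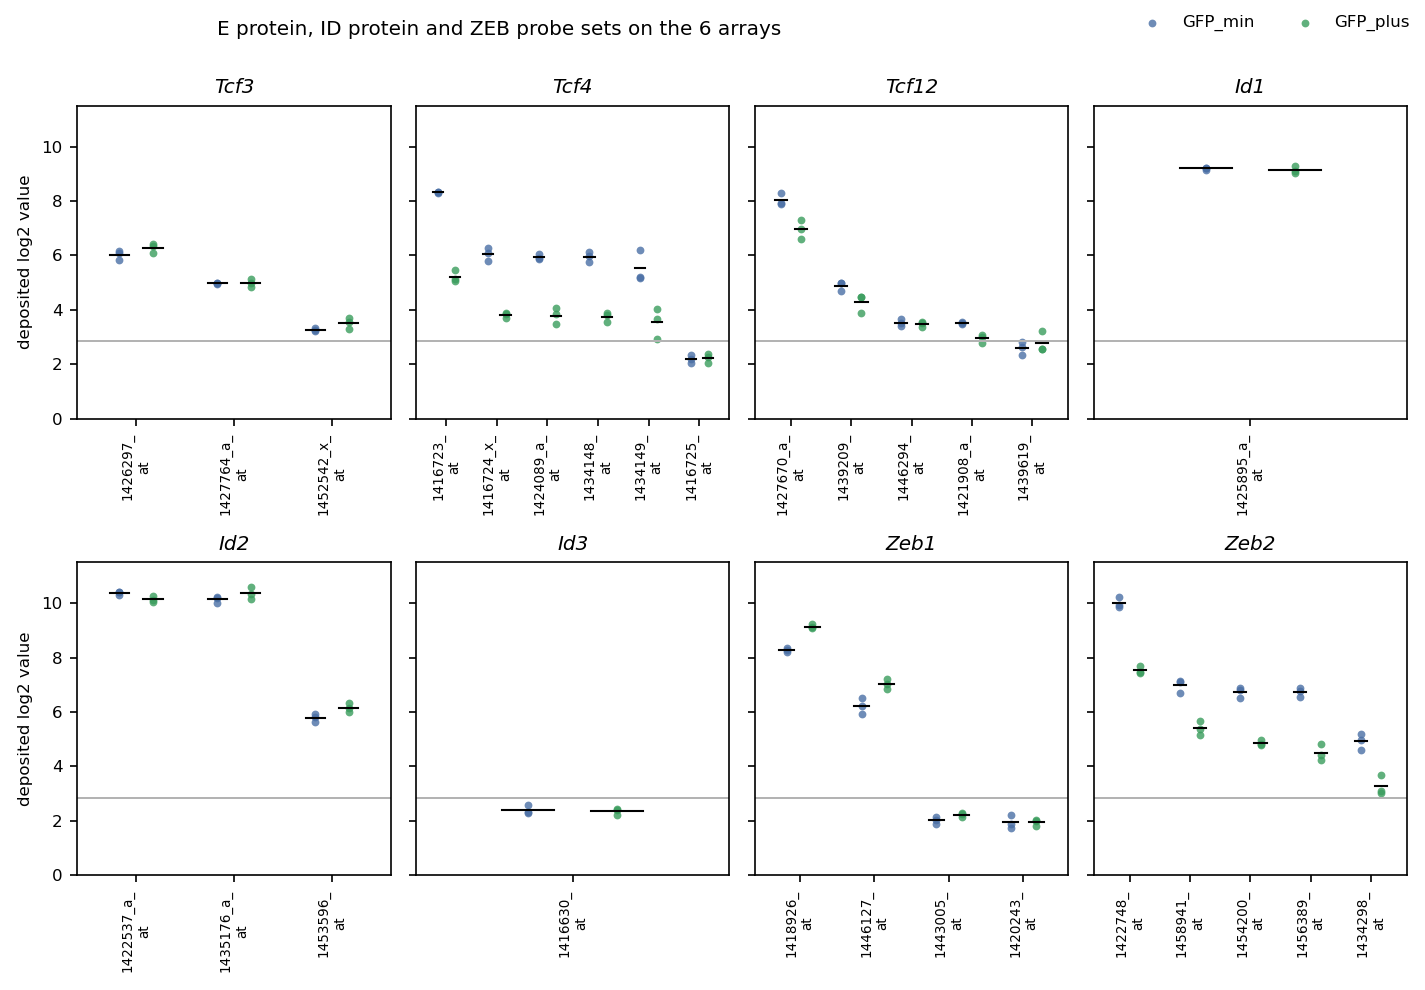
Deposited log2 values of all 28 member probe sets, 1 panel a gene and 1 column pair a probe set, with a point for each array (blue GFP_min, green GFP_plus), a black line at the mean of 3 arrays and a grey band at the array medians (2.82 to 2.88). The groups lie apart in 5 of 6 Tcf4 and in all 5 Zeb2 probe sets with GFP_plus below, and in 3 of 4 Zeb1 probe sets with GFP_plus above, of which 1 lies below the grey band.

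Among the E protein genes, Tcf4 differed most. Its brightest probe set, 1416723_at, read 8.35, 8.33 and 8.28 in GFP_min replicates a, b and c and 5.46, 5.07 and 5.13 in GFP_plus. All GFP_plus arrays thus lay far below all GFP_min arrays, and still above the array medians. The difference was −3.10 (SE 0.13, limma adjusted p = 1.05e-07). The 4 other tested probe sets of Tcf4 fell by 1.99 to 2.23, each without overlap, and 1434149_at had the widest spread, with 6.19, 5.18 and 5.21 in GFP_min against 3.65, 4.04 and 2.93 in GFP_plus. The sixth, 1416725_at, lay below the array medians on every array (2.19 ± 0.14 and 2.22 ± 0.17) and was not tested. No 1 array carried the Tcf4 result: with each array left out in turn the brightest probe set differed by −3.22 to −3.02 and all 5 tested probe sets stayed called.

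Tcf12, whose product HEB pairs with E2A in developing lymphocytes, was lower to a smaller extent and not in every probe set. Its brightest probe set, 1427670_a_at, read 7.88, 7.93 and 8.30 in GFP_min and 6.99, 7.29 and 6.62 in GFP_plus. The groups did not overlap, and the difference was −1.07 (SE 0.18, limma adjusted p = 0.000913). Probe set 1421908_a_at fell by 0.55 and ended close to the array medians (3.02, 2.80 and 3.08 in GFP_plus), and its call was lost with ribosomal centring (−0.02), described further on. For 1439209_at the difference was −0.60 (limma adjusted p = 0.0270), and its call was lost without GFP_min replicate a (−0.55), GFP_min replicate b (−0.54) or GFP_plus replicate a (−0.40), and after quantile normalization (−0.40) or with median (−0.39) or ribosomal centring (−0.07). The fourth tested probe set, 1446294_at, read 3.53 ± 0.12 and 3.48 ± 0.09 and did not pass (limma adjusted p = 0.718). The last, 1439619_at, exceeded the array median on 2 arrays only and was not tested.

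Tcf3, which encodes E2A, the E protein that B cell development depends on, did not pass in any of its 3 probe sets. The brightest, 1426297_at, read 6.15, 6.09 and 5.83 in GFP_min and 6.43, 6.08 and 6.34 in GFP_plus, so the groups overlapped. Its difference was 0.26, with a 95% interval of −0.07 to 0.59 (limma adjusted p = 0.185). The other two differed by 0.01 (−0.30 to 0.31) and 0.25 (−0.04 to 0.54). These intervals leave room for a change of up to about 0.59 log2 upward, and a missed threshold does not show equal levels. The intervals of Tcf3 and of the tested Tcf4 probe sets did not meet, the highest bound for Tcf4 being −1.27, against a lowest bound of −0.30 for Tcf3.

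**Figure D2:**
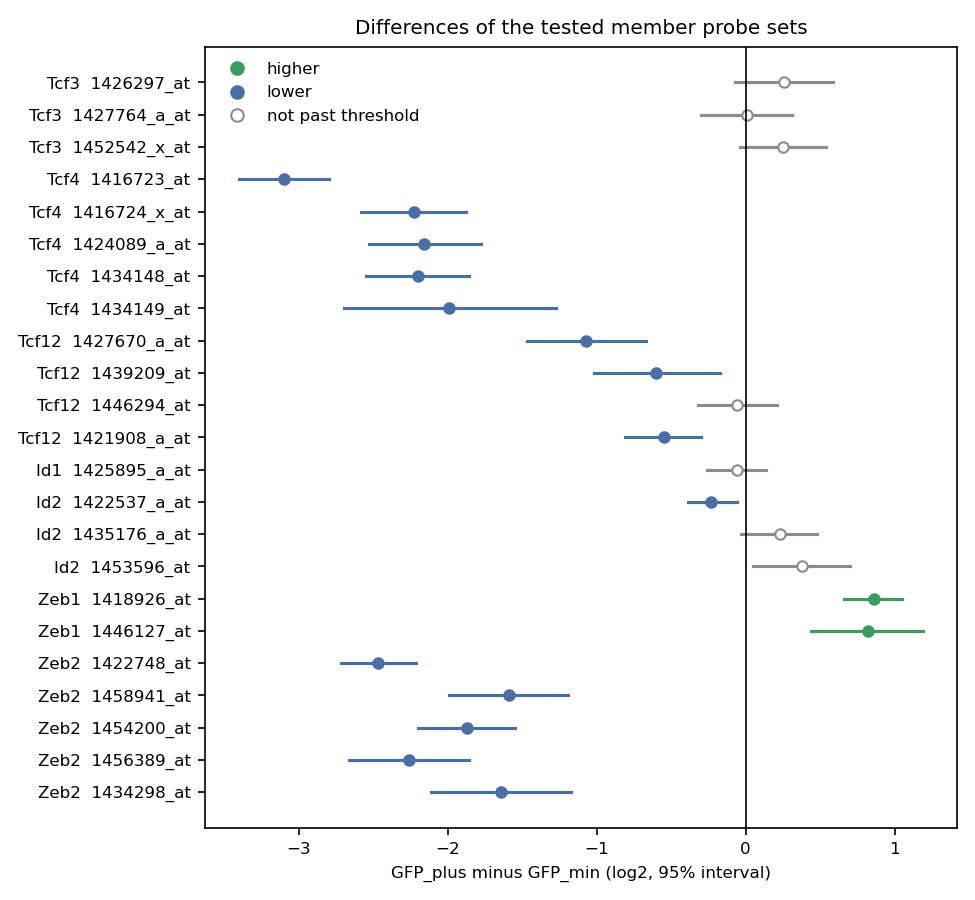
GFP_plus minus GFP_min for the 23 tested member probe sets (log2), with the 95% interval of each from the limma fit, not adjusted for the number tested. Green and blue points passed upward and downward at an adjusted p under 0.05 and open grey points did not; Tcf4 and Zeb2 lie between −3.10 and −1.59, Zeb1 at 0.82 and 0.86, and Tcf3, Id1 and Id2 between −0.23 and 0.38.

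The ID genes showed small differences or none that passed. Id1, an inhibitor that BMP signals are known to induce, read 9.23, 9.23 and 9.13 in GFP_min and 9.02, 9.11 and 9.28 in GFP_plus on its 1 probe set, 1425895_a_at. The groups overlapped, and the difference was −0.06 with a 95% interval of −0.26 to 0.14 (limma adjusted p = 0.619). Id3 read 2.40 ± 0.17 and 2.35 ± 0.12, below the medians of all 6 arrays, so that any transcript was too dim to compare.

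Id2 was bright in both groups and its probe sets disagreed. The brightest, 1422537_a_at, read 10.30, 10.43 and 10.40 in GFP_min and 10.13, 10.06 and 10.25 in GFP_plus, a fall of 0.23 without overlap (limma adjusted p = 0.0288). The second, 1435176_a_at, read 10.24, 10.00 and 10.18 against 10.35, 10.61 and 10.14, which overlapped and did not pass (0.23, adjusted p = 0.134). The third, 1453596_at, was dimmer, 5.81, 5.62 and 5.91 against 6.14, 6.00 and 6.32, and lay higher in GFP_plus without overlap and without passing (0.38, adjusted p = 0.0575). The fall of 1422537_a_at lost its call without GFP_min replicate b (−0.20), GFP_min replicate c (−0.22), GFP_plus replicate a (−0.22) or GFP_plus replicate b (−0.18), with the replicate letter as a block (limma adjusted p = 0.0862), without a filter on dim probe sets (0.0535), without a variance trend (0.0779) and with median centring (−0.03). The other probe sets passed as higher in some settings: 1453596_at after quantile normalization (0.58), with median (0.58) or ribosomal centring (0.91), without a variance trend (0.38) and without GFP_plus replicate b (0.46), and 1435176_a_at with median (0.43) or ribosomal centring (0.76) and without GFP_plus replicate c (0.34). No direction is therefore given for Id2.

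The ZEB genes moved in opposite directions. Zeb2 read 9.87, 10.22 and 9.95 in GFP_min and 7.45, 7.69 and 7.49 in GFP_plus on its brightest probe set, 1422748_at. Every GFP_plus array lay more than 2 log2 below every GFP_min array, and the difference was −2.47 (SE 0.11, limma adjusted p = 1.50e-07). Its 4 other probe sets fell by 1.59 to 2.26, all called and all without overlap. The largest of these, 1456389_at, read 6.78, 6.54 and 6.89 against 4.41, 4.81 and 4.22. With each array left out in turn the brightest probe set differed by −2.54 to −2.36, and all 5 stayed called.

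Zeb1, the paralog known best for repressing epithelial genes and for a role in lymphocytes, was higher in GFP_plus. Probe set 1418926_at read 8.28, 8.36 and 8.22 in GFP_min and 9.12, 9.08 and 9.23 in GFP_plus, so that the groups were well apart. The difference was 0.86 (SE 0.09, limma adjusted p = 3.79e-05). Probe set 1446127_at read 6.51, 5.94 and 6.23 against 6.86, 7.03 and 7.22, a difference of 0.82 (limma adjusted p = 0.00297). Both stayed called with any 1 array left out. The 2 other Zeb1 probe sets lay below the medians of all arrays, with means of 1.94 to 2.23, and were not tested.

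Small differences on these arrays depend on the zero point. Centring the arrays on the median of the tested probe sets adds 0.20 to every difference, centring on 42 ribosomal protein genes adds 0.53, and centring on bacterial poly-A control RNAs changes it by −0.45. Genes called higher made up 43.2% of all called genes as deposited, 68.1% with median, 85.8% with ribosomal and 5.10% with poly-A centring. Tcf4, Tcf12 and Zeb2 stayed lower and Zeb1 stayed higher under each of the 3 centrings and quantile normalization, by their brightest probe sets. The difference of Tcf12 ranged from −1.52 (poly-A) to −0.54 (ribosomal), and that of Zeb1 from 0.41 (poly-A) to 1.39 (ribosomal). The brightest probe sets of Tcf3, Id1 and Id2 changed sign under at least 1 of them: Tcf3 went to −0.19 with poly-A, Id1 to 0.14 with median and 0.47 with ribosomal, and Id2 to 0.30 with ribosomal centring. Tcf3 passed as higher after quantile normalization (0.46) and with median (0.46) and ribosomal centring (0.79), and Id1 passed as higher with ribosomal and as lower with poly-A centring (−0.50). Id2, called lower as deposited, passed as higher with ribosomal and as lower with poly-A centring (−0.67).

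**Figure D3:**
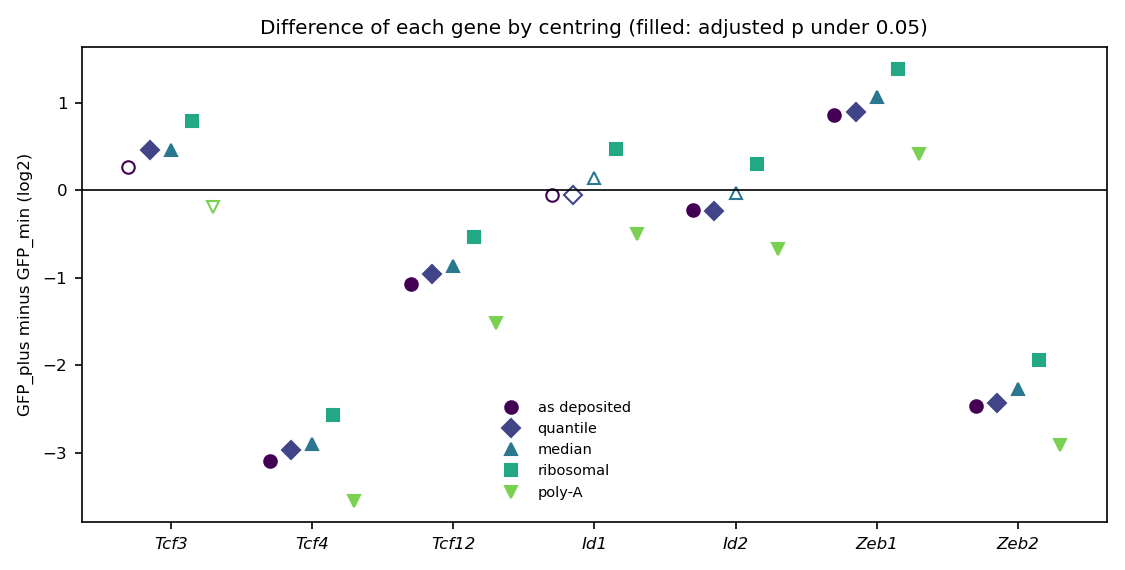
Difference GFP_plus minus GFP_min (log2) of the brightest probe set of each of the 7 tested member genes as deposited, after quantile normalization and with the arrays centred on the median, on ribosomal protein genes or on poly-A control RNAs; filled symbols passed at an adjusted p under 0.05. Tcf4, Tcf12 and Zeb2 stay below 0 and Zeb1 above 0 in all 5 settings, while Tcf3, Id1 and Id2 lie on both sides.

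Monocyte transcripts moved with the same samples. All 11 measured genes of a monocyte marker list were lower in GFP_plus, and their mean per array was 11.62 to 11.72 in GFP_min and 6.38 to 6.61 in GFP_plus. For conventional dendritic cells 4 of 5 tested markers were lower and 1 higher (mean of 8 genes 4.66 to 4.84 against 3.15 to 3.26), with Zbtb46 and Xcr1 below the medians of all arrays. Of 7 tested plasmacytoid dendritic cell markers 2 were lower, and the list averaged 3.89 to 4.06 against 3.45 to 3.56. Siglech, which defines these cells in the mouse, read 2.98, 2.88 and 3.04 in GFP_min and 2.63, 2.77 and 2.74 in GFP_plus, at or near the array medians. Of 6 tested B cell markers 2 were lower and 0 higher. The lower ones were Ighm (11.46 ± 0.12 in GFP_min against 11.00 ± 0.12 in GFP_plus) and Cd79b (5.75 ± 0.11 against 5.04 ± 0.34). The B cell list averaged 4.28 to 4.33 and 4.19 to 4.24, with Pax5 below all medians. Of 8 measured markers of NK cells and innate lymphoid cells 2 were tested, both lower, and 6 lay below all medians. Resident macrophage markers were mixed, with 5 of 8 tested higher and 2 lower (list mean 4.63 to 4.75 against 4.91 to 5.11). The lists that follow moved upward, with Zeb1. All 6 measured neutrophil primary granule genes were higher (list mean 10.47 to 10.55 against 11.63 to 11.74), as were 5 of 11 genes of later neutrophil stages. So were 4 of 5 tested stem and progenitor genes (5.02 to 5.08 against 5.41 to 5.52), with Cd34 and Mecom below the medians of all arrays. Of 8 tested basophil and mast cell markers 7 were higher (3.92 to 3.97 against 5.38 to 5.40). Kit and Gata2 stand in both of these lists. The basophil and mast cell list also holds Hdc, on which the cells were sorted. Its Fcer1a and Cpa3 passed the filter on dim probe sets only through GFP_plus, so its count carries no weight of its own. Vcan, Cd209a and Axl passed that filter only through GFP_min. They are among the lower monocyte, conventional dendritic cell and resident macrophage markers, so the counts of lower genes in those lists carry no weight of their own either. The list means use all measured genes, tested or not. Of 3 tested erythroid markers 3 were higher (list mean 3.26 to 3.38 against 3.63 to 3.65). So were 3 of 4 tested megakaryocyte markers (3.06 to 3.15 against 3.35 to 3.47) and 2 of 2 tested eosinophil markers (2.89 to 2.95 against 3.60 to 3.78). Car1 and Itga2b, among the erythroid and megakaryocyte calls, passed the filter only through GFP_plus, so those counts carry no weight of their own. Of 3 tested T cell markers 0 were called. Over all tested genes 21.0% were higher and 27.6% lower. In these bulk samples fewer cells of a type and less RNA per cell cannot be told apart, and the part of these cell types in the falls of Tcf4, Tcf12 and Zeb2 and the rise of Zeb1 was not tested.

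Genes that work with the members were followed in 10 lists. Together the lists held 141 genes, of which 98 were tested; 19 were higher and 29 lower, with a median difference of 0.08 against 0.0023 over all genes. Without GFP_plus replicate a 10 were higher, and without GFP_min replicate c 11. Among the called genes Dsp and Esrp2 passed the filter on dim probe sets only through GFP_plus, and Acvr1 only through GFP_min. Counts per list are read against the 21.0% and 27.6% of all tested genes that were called higher and lower. At an unadjusted limma p under 0.05, 2723 of all 10810 tested genes were higher and 3321 lower, against which unadjusted counts are read.

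Tissue-specific partners that pair with E proteins were mostly dim. Of 20 such genes 8 were tested, 2 were higher and 1 lower. Their median difference was 0.18. Tal1, a partner in stem, erythroid and megakaryocyte cells, rose by 1.04 from near the array medians, reading 3.01, 3.54 and 3.09 in GFP_min and 4.11, 4.13 and 4.51 in GFP_plus. Ascl2 rose by 0.91 (SE 0.20, limma adjusted p = 0.00390). Lyl1, the close relative of Tal1, was bright (10.08 ± 0.02 and 9.57 ± 0.09) and fell by 0.50 as deposited, and was 0.03 higher with ribosomal centring. Among other ID genes and repressors of the helix-loop-helix-Orange type 3 of 8 were tested: Bhlhe40 rose by 0.83 (0.38, not called, with poly-A centring), Hes6 fell by 0.75 (−0.22, not called, with ribosomal centring) and Heyl did not pass.

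Helix-loop-helix proteins with a leucine zipper also bind E-boxes but do not pair with E proteins. Of 8 tested 4 were lower and 2 higher, with 0 higher without GFP_min replicate c or GFP_plus replicate c and 1 without any of the arrays GFP_min a, GFP_plus a and GFP_plus b. The related genes Mitf and Tfec, which act in macrophage lineage cells, fell by 1.02 and 1.23, with Tfec at 7.42, 7.45 and 7.34 in GFP_min and 6.11, 6.20 and 6.21 in GFP_plus. Tfeb, a regulator of lysosome genes from the same family, rose by 0.57, a call lost without GFP_min replicate c (0.42) or GFP_plus replicate c (0.51). Srebf1 fell by 0.68, which was −0.15 and not called with ribosomal centring.

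All 14 E protein cofactor genes were tested, and 5 were lower and 3 higher. Cbfa2t3, a corepressor of the ETO family that E proteins recruit, differed most and fell by 2.93 (limma adjusted p = 4.76e-07), reading 6.51, 6.69 and 6.41 in GFP_min and 3.77, 3.70 and 3.35 in GFP_plus. The acetyltransferase gene Kat2a fell by 1.87 and Ssbp2, which stabilises the LDB1 complex, by 1.32. Lmo2, a bridge between Tal1 or Lyl1 and GATA factors, fell by 0.41, and was 0.12 higher with ribosomal centring. The coactivator genes Ep300 (0.34) and Kat2b (0.16) and Lmo4 (0.31), named after their values were seen, were the 3 higher members. With poly-A centring they turned to −0.11, −0.28 and −0.13. Lmo4 stayed called with any 1 array left out, while Ep300 lost its call without GFP_min replicate b (0.26), GFP_min replicate c (0.33) or GFP_plus replicate b (0.23), and Kat2b without GFP_min replicate a or c or GFP_plus replicate a or c (0.15 to 0.16). With the replicate letter as a block Ep300 and Kat2b were not called (limma adjusted p = 0.0606 and 0.151).

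Corepressors of ZEB factors differed little. Of 12 tested, 2 were lower by limma, Mta1 (−0.68) and Smarca4 (−0.32), and 0 higher, with 1 higher and 2 lower at an unadjusted p under 0.05. With ribosomal centring Smarca4 was 0.21 higher and Mta1 was no longer called (−0.15), nor was Mta1 after quantile normalization (−0.48) or Smarca4 with median centring (−0.12). Ctbp1 and Ctbp2, whose products ZEB factors recruit directly, read 10.90 ± 0.04 against 10.97 ± 0.09 and 9.39 ± 0.16 against 9.44 ± 0.24. BMP and TGF-beta receptors and SMADs, which are known to feed into Id gene transcription, gave 5 higher and 6 lower of 20 tested, with 3 higher without GFP_plus replicate a. Bmpr1a, a BMP receptor, rose by 0.82, and Smad1, which carries the BMP signal, fell by 0.67, which was −0.14 and not called with ribosomal centring. Acvr1 was at least 2.50-fold lower, the bound set by the array medians because it lay below them in GFP_plus, and Tgif1, a SMAD corepressor, fell by 1.20. Acvr1 passed the filter on dim probe sets only through GFP_min, so the count of 6 lower carries no weight of its own.

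**Figure D4:**
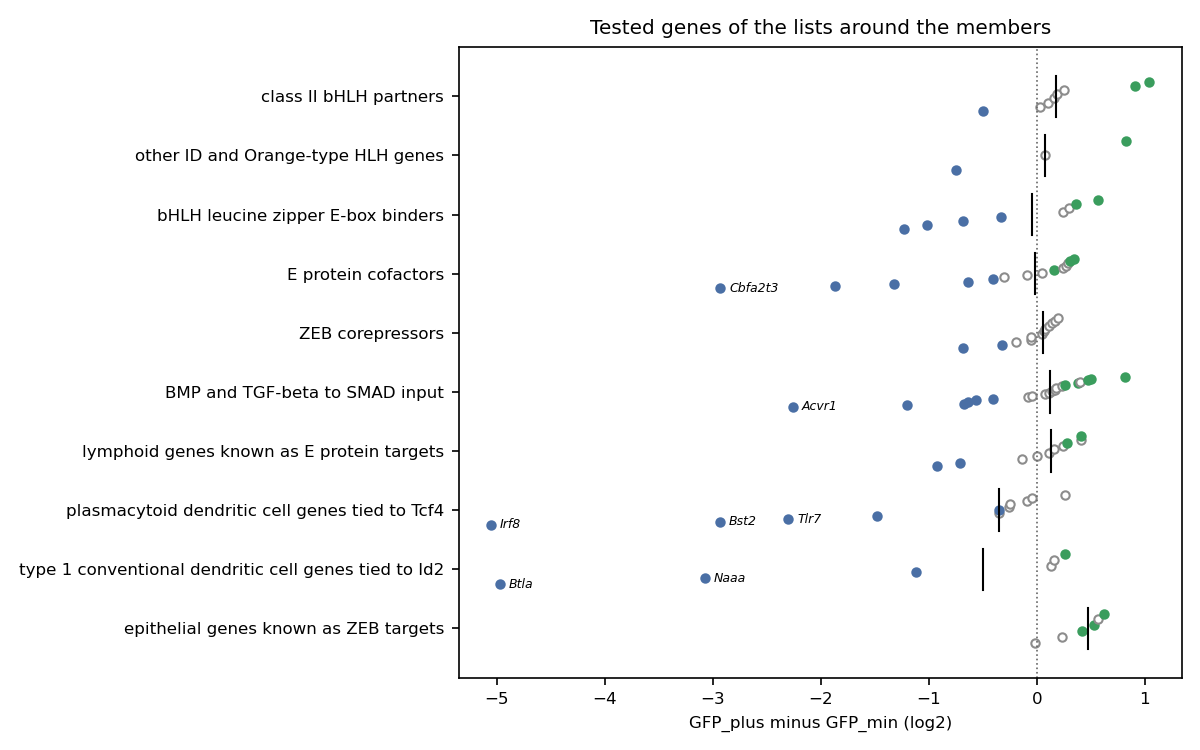
Difference GFP_plus minus GFP_min (log2) of each tested gene in the 10 lists around the members, 1 row a list, as deposited. Green and blue points were called higher and lower, open points were not called, a black bar marks the list median, and genes past 2 log2 are named; all of these are falls, from −5.05 (Irf8) to −2.26 (Acvr1).

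Genes known to depend on single members were taken as 4 further groups among these lists. Of 11 tested genes of plasmacytoid dendritic cells tied to Tcf4, 5 were lower and 0 higher by limma (6 and 0 at an unadjusted p under 0.05), with a median of −0.35. The unadjusted count adds Siglech, which passed the filter on dim probe sets only through GFP_min, so that count carries no weight of its own. Irf8, an interferon regulatory factor of monocytes and dendritic cells, fell by 5.05, reading 10.70, 10.74 and 10.61 in GFP_min and 5.80, 5.48 and 5.61 in GFP_plus. Bst2 fell by 2.93 and Tlr7, a sensor of single-stranded RNA, by 2.30. Both were highest in GFP_min replicate b, Bst2 at 8.20 beside 7.03 and 6.56, and Tlr7 at 7.55 beside 6.51 and 6.67. Bcl11a, a zinc finger factor of lymphoid and dendritic cells, fell by 1.48. Monocytes also express Irf8, Bst2 and Tlr7, and the monocyte list moved between the same samples, as given above. The part of monocytes in these falls was not tested, nor was that of Tcf4.

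Of 6 tested genes of type 1 conventional dendritic cells tied to Id2, 3 were lower and 1 higher. Btla, an inhibitory receptor, fell by 4.97 (9.46, 9.43 and 9.68 in GFP_min; 4.42, 4.62 and 4.61 in GFP_plus), the lipid amidase gene Naaa by 3.07 and the AP-1 factor gene Batf3 by 1.12. Wdfy4, the higher member, differed by 0.26, lost its call without each of 4 arrays (0.22 to 0.25) and turned to −0.18 with poly-A centring. Lymphoid genes known as E protein targets were 2 higher and 2 lower of 10 tested. Foxo1 fell by 0.92 and Cd79b by 0.71, and with ribosomal centring neither was called (−0.39 and −0.18). Foxo1 ended close to the array medians (2.74, 3.18 and 3.50 in GFP_plus). Dntt (0.41) and Notch1 (0.28) were the higher ones, and both calls were lost without each of 4 arrays, at 0.30 to 0.41 and 0.19 to 0.29. Dntt lay close to the array medians, at 2.77, 3.19 and 2.98 in GFP_min and 3.37, 3.49 and 3.30 in GFP_plus. With poly-A centring Dntt turned to −0.04 and Notch1 to −0.17.

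Epithelial genes known as ZEB targets were near the array medians. Of 14, 6 were tested, with 3 higher and 0 lower by limma, and 4 and 0 at an unadjusted p under 0.05. Tjp3, a tight junction protein gene, rose by 0.62, reading 4.38, 4.02 and 4.34 in GFP_min and 4.87, 4.53 and 5.20 in GFP_plus. Its call was lost without GFP_min replicate b (0.50), GFP_plus replicate a (0.62) or GFP_plus replicate c (0.45). Dsp was at least 1.20-fold and Esrp2 at least 1.19-fold higher, since both lay below the medians in GFP_min. These 2 passed the filter on dim probe sets only through GFP_plus, where they are high, so the count of 3 carries no weight of its own, and 1 was higher among genes above the median on all 6 arrays. Without GFP_plus replicate a 1 member was called and without GFP_plus replicate b 5 were, and Esrp2 lost its call without GFP_min replicate c or GFP_plus replicate a (0.37 each). With poly-A centring none of the 3 was called, with Tjp3 at 0.17, Dsp at 0.08 and Esrp2 at −0.03.

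The genes whose 6 values ran most like those of a member were found by Euclidean distance between log2 values, each centred on its own mean over the 6 arrays. For Tcf4 these were Ccdc50 (distance 0.219), the lysosomal protease gene Ctsc (0.274) and the peroxiredoxin gene Prdx2 (0.293), which fell by 3.14, 3.01 and 3.27. For Zeb2 they were Fkbp1b (0.237), Depdc7 (0.263) and Rwdd2a (0.299), with differences of −2.34, −2.56 and −2.33. For Tcf12 they were Apool (0.217), the histone demethylase gene Kdm2b (0.293) and Wfs1 (0.303), with differences of −1.08, −1.16 and −0.99. Depdc7 and Wfs1 lay below the array medians in GFP_plus. Likeness over 6 arrays in 2 groups mostly reflects a like difference between the groups.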

How the data were processed

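Per the labels' protocols, RNeasy Micro columns gave the RNA, which an Affymetrix 3′ IVT kit turned into labelled target. The authors deposited 1 table of log2 values with 45101 probe sets on 6 arrays; the submitters' processing notes name GCRMA, with version and settings not given in the sources used here. The log2 scale was inferred from the range of the values. Platform annotation gave 34958 probe sets 1 symbol, 932 several and, controls aside, 9160 none; symbols were updated through gene IDs found in a RefSeq table (GRCm38.p6) for 34754.

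The 64 control probe sets were left out, and testing required a value over that array's median on 3 or more of the 6 arrays. GFP_plus minus GFP_min was fitted with limma 3.58.1 in R 4.3.3 (lmFit, eBayes with intensity trend) across all tested probe sets, with Benjamini-Hochberg adjustment and a threshold of 0.05. The brightest tested probe set, by its mean, stood for a gene. Folds are 2 to the power of the log2 difference. Members and lists were chosen with earlier results of these data known.

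Named were all member probe sets, up to 4 called genes a list with the smallest adjusted p (up to 2 with the largest difference where none was called), and the 3 nearest genes of each member called with a difference of at least 1. Alternatives covered filters, variance model, array weights, normalization, centring, probe sets of a gene, a blocked fit on the replicate letter, a threshold of 1 log2 and each array left out. The fit was tested on simulated data. Figures were drawn with matplotlib 3.10.9.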

Additional observations from a re-analysis of the deposited data

How the results depend on the processing

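By their brightest probe sets, the calls of Tcf4 and Zeb2 held under all alternatives, and those of Zeb1 and Tcf12 under all but the threshold of 1 log2. With that threshold 7 member probe sets stayed lower, all of Tcf4 or Zeb2, and by limma 0 were higher, also at an unadjusted p under 0.05. At that threshold list genes gave 0 higher (0 unadjusted) and 8 lower, and all genes 28 and 440. Member probe sets called higher numbered 4 after quantile normalization, 6 with median, 10 with ribosomal and 1 with poly-A centring, against 2 as deposited. List genes called higher numbered 47, 67 and 3 with these 3 centrings; 14 were lower with ribosomal and 54 with poly-A centring. All genes called higher numbered 4472, 7380 and 347, and those lower 1218 with ribosomal and 6460 with poly-A centring. Under poly-A centring limma's prior degrees of freedom came out infinite, so its p-values may be too small. With 1 array left out, 2 to 4 member probe sets were higher and 12 to 14 lower, and 10 to 18 list genes were higher; without GFP_plus replicate b the member count was 4.

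Some differences changed sign, and the cause was not tested. Tcf3 1427764_a_at went to −0.06 with array weights, −0.44 with poly-A centring and −0.07 to 0.08 with 1 array left out. Tcf12 1446294_at went to 0.02 after quantile normalization, 0.14 with median and 0.47 with ribosomal centring, and −0.12 to 0.01 with 1 array left out. Id1 went to 0.14 with median and 0.47 with ribosomal centring. Ribosomal centring turned Id2 1422537_a_at to 0.30, Lyl1 to 0.03, Smarca4 to 0.21 and Lmo2 to 0.12; 6 other falls lost their calls there (Foxo1, Mta1, Cd79b, Srebf1, Hes6 and Smad1). Poly-A centring turned Tcf3 1426297_at and 1452542_x_at to −0.19 and −0.20, Id2 1435176_a_at and 1453596_at to −0.22 and −0.07, Notch1 to −0.17, Esrp2 to −0.03, Wdfy4 to −0.18, Dntt to −0.04, Ep300 to −0.11, Kat2b to −0.28 and Lmo4 to −0.13, and the second Zeb1 probe set (0.37), Bhlhe40, Tfeb, Tjp3 and Dsp lost their calls there.

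With the replicate letter as a replicate block 2 member probe sets were higher and 13 lower. Same-lettered arrays did not deviate together (correlations of −0.182, −0.303 and −0.22), and the labels do not say what a letter stands for, so the letters were not taken to pair arrays. Among genes with a fit of their own under each setting, the block lost the calls of Id2 1422537_a_at, Notch1, Wdfy4, Ep300 and Kat2b.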

Other observations

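Differences between 2 probe sets on the same array do not depend on how arrays are centred, although their level has no meaning because probes differ in brightness. By the brightest probe sets, Zeb1 minus Zeb2 was −1.60, −1.86 and −1.73 in GFP_min and 1.67, 1.39 and 1.74 in GFP_plus, a shift of 3.33. Tcf3 minus Tcf4 was −2.19, −2.24 and −2.45 in GFP_min and 0.96, 1.02 and 1.21 in GFP_plus, a shift of 3.36. Tcf12 minus Tcf4 was −0.46, −0.40 and 0.02 in GFP_min and 1.53, 2.23 and 1.49 in GFP_plus, a shift of 2.03 between these 2 probe sets. Tested probe sets of a single gene also differed, from −3.10 to −1.99 for Tcf4 and from −1.07 to −0.06 for Tcf12. The pairs above were chosen after their values were seen and were not tested.

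The brightest probe sets of Tcf4 and Zeb2 showed larger falls (3.10 and 2.47) than the dimmer tested probe sets of the same genes (1.99 to 2.23 and 1.59 to 2.26). In GFP_plus the means of these dimmer probe sets were 3.54 to 3.82 for Tcf4 and 3.28 to 5.40 for Zeb2, with array medians of 2.82 to 2.88 over all arrays. The part of nearness to the array medians in the smaller falls was not tested.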
